A study of Homo sapiens with 8 samples.

Results

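U266/LR7, a multiple myeloma line resistant to melphalan, was compared with its parental line U266/s while both were exposed to the drug. The comparison rests on 4 of the 8 arrays of the study. For U266/LR7 these were the array with 100 µM melphalan alone and the array with 100 µM melphalan and inhibitors of miR-221 and miR-222 at 100 nM. U266/s had the same pair of arrays, and the lines were matched on the inhibitors. The other 4 arrays held both lines without melphalan, with a negative control oligo or with the inhibitors, and served as the background. RNA of every sample was taken 12 h after treatment began. No condition was replicated, and U266/LR7 is 1 derivative of 1 line. Whether the samples were grown as separate cultures is not stated in the labels. A p-value here thus covers only the spread left after a common effect of the inhibitors is fitted. That spread holds array-to-array noise, which may be technical, and any effect of the inhibitors that differs with line or drug. The transfection label of the melphalan-alone arrays reads none in both lines, whereas the protocol text reads as if they had received a control oligo. The line comparison is matched on that point.

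Melphalan is a nitrogen mustard taken up through amino acid transporters. It alkylates guanines and links the strands of DNA to each other, which blocks replication and transcription and activates checkpoint kinases and, if damage persists, apoptosis. Myeloma cells are malignant plasma cells, and resistance to melphalan has been tied in general to uptake, thiol conjugation, crosslink repair and the threshold for apoptosis.

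The inhibitors on 1 array of each matched pair target a pair of microRNAs that share a seed, so that 1 sequence defines the sites of both. Their mature sequences in RefSeq (GRCh38.p14) are shown with the seed, bases 2 to 8 from the 5′ end, in capitals. Both lie on the minus strand of the X chromosome, at chrX:45746180-45746202 and chrX:45747036-45747056.
hsa-miR-221-3p: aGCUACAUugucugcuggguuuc
hsa-miR-222-3p: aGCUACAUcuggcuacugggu
The hairpin genes gave low array signal. MIR221 read 5.01 and 5.17 on the melphalan arrays of U266/LR7 and 4.69 and 5.28 on those of U266/s, and MIR222 read 4.35 and 4.36 against 4.73 and 5.96. The lines overlapped for MIR221, and neither gene passed the test (limma adjusted p = 0.6513 and 0.072).

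Values are log2 array signals, for which a difference of 1 is a 2-fold change. Where 2 values are given for a line, the first is the array without inhibitors. Differences are U266/LR7 minus U266/s with the model's standard error, and a gene is called where limma's Benjamini-Hochberg adjusted p over all 18417 genes tested is under 0.05. Medians of the 4 melphalan arrays lay between 7.31 and 7.38. The spread of values differed. The quartile range was 2.75 and 2.80 log2 units on the melphalan arrays of U266/s and 3.08 to 3.31 on the other 6 arrays. Counts after quantile normalization, which gives all arrays the same spread, are given below. The cause of the narrower range was not tested. Across genes, the melphalan arrays correlated at 0.9234 to 0.9297 between the lines, 0.9964 within U266/LR7 and 0.99 within U266/s. Markers of the labelled cell type were present. The plasma cell markers had a median signal of 10.28 to 11.05, and 1 of 10 lay under the lower quartile of each array. Under the lower quartile of each array lay 3 of 5 B cell markers, 5 or 6 of 8 T and NK cell markers, 3 or 4 of 10 stromal and epithelial markers and 0 or 1 of 2 erythroid markers. The highest signal among stromal and epithelial markers was 8.603 to 9.158. Of these 10 markers, 2 were called higher and 1 lower in U266/LR7, beside 27.7% and 24.0% of all genes. Of 9 myeloid markers, 5 were called lower in U266/LR7 and 1 higher, beside 24.0% and 27.7% of all genes. Summed over these markers, U266/LR7 read 9.73 and 10.11 on the log2 scale, below the 10.35 and 10.42 of U266/s. CD14, a monocyte receptor, differed by -1.16 and MPO, a granule enzyme, by -1.21, and the part of these genes in other results was not tested. Without melphalan 2 of the 9 myeloid markers were higher in U266/LR7 and 0 lower, beside 16.9% and 17.8% of all genes. A called negative melphalan by line interaction was found for 4 of the 9, beside 5.99% of all genes. All samples are labelled as U266/s or its derivative U266/LR7. In such bulk RNA, the number of cells with a transcript and its amount per cell cannot be told apart.

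Under melphalan, 9529 of 18417 genes were called between the lines (51.7%), and the counts of list members below are to be read against the shares of all genes. They comprised 5109 genes higher in U266/LR7 (27.7%) and 4420 lower (24.0%). Called differences of at least 2-fold were uneven: 2256 genes were higher (12.2%) and 839 lower (4.56%), so that 72.89% of them were higher. That share depended on the scaling and was 68.51% after median centring of the arrays, 58.82% after quantile normalization and 61.8% after cyclic loess. Among all calls the majority turned in 2 of these scalings: 4770 were higher and 5439 lower after median centring, and 4201 against 4592 after quantile normalization. It did not turn after cyclic loess, with 4210 higher and 3905 lower. Without melphalan 3114 genes were higher (16.9%) and 3283 lower (17.8%), and 46.76% of the 2-fold calls were higher.

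Both matched pairs gave the same direction for 9528 of the 9529 called genes. The difference of a gene is the mean of these 2 pairs, so this agreement follows in large part from the call and is no separate support. The gap between a gene's pairs had a median of 0.1932 log2 units, and 128 genes had pairs at least 1 unit apart. Of these, 86 were called and 24 were snoRNA, snRNA or other small RNA genes. An exact permutation test of 2 arrays against 2 cannot go below p = 0.333, so the calls rest on the spread shared across all genes and 8 arrays.

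The drug and no-drug differences of a gene were compared through the melphalan by line interaction, which is the line difference under melphalan minus that without. It was called for 4394 genes, positive for 3290 (17.9%) and negative for 1104 (5.99%). The positive share of 74.87% was 63.35% after median centring, 55.06% after quantile normalization and 61.13% after cyclic loess. In all, 4196 genes were called in the same direction with and without the drug, which is 44.03% of the calls under melphalan and 65.59% of those without. Lasting differences of at least 2-fold in both states held for 1242 genes, 693 higher and 549 lower.

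**Figure D1:**
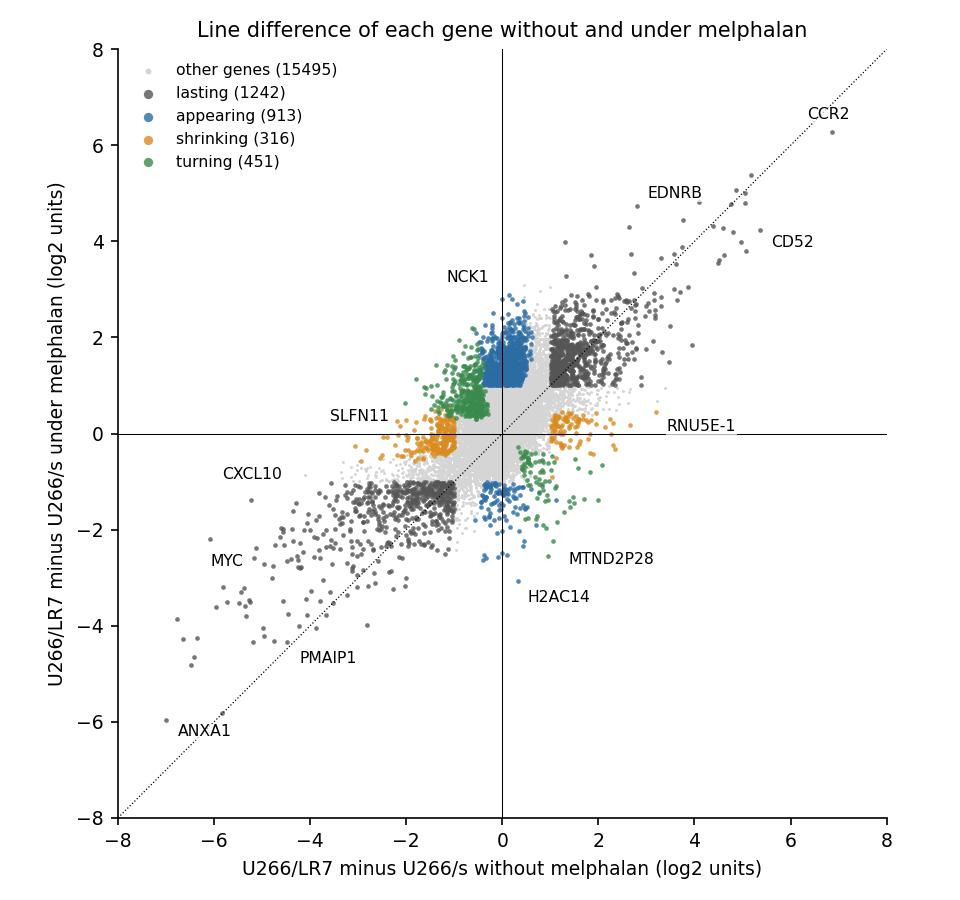
Each point is 1 of 18417 genes, placed by the line difference without melphalan (x axis) and under melphalan (y axis), both in log2 units, with the dotted line marking equal differences. The 1242 lasting genes lie along the diagonal, the 913 appearing genes in a vertical band near x = 0 with 805 of them above it, the 316 shrinking genes in a horizontal band near y = 0, and the 451 turning genes in the opposite quadrants.

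The largest difference under melphalan was in CCR2, the receptor of monocyte chemoattractant chemokines. It read 11.62 and 11.69 in U266/LR7, beside 5.48 and 5.26 in U266/s. The U266/LR7 arrays were far above those of U266/s, where signal lay below the lower quartile of the genes, and the difference was 6.28 ± 0.15 (adjusted p = 2.08e-09). The other genes among the 12 with the largest higher values were GPR171 (5.38), a lymphoid receptor, PSD3 (5.06), SH2D1A (5.01), the adaptor SAP of lymphoid signalling, ZNF676 (4.82), ZNF729 (4.80), BRDT (4.77), a bromodomain protein of testis, EDNRB (4.73), ZNF730 (4.45), FAM133A (4.33), POPDC3 (4.29) and MPZL2 (4.27). Those with the largest lower values were ANXA1 (-5.96), which encodes annexin A1, FGFR3 (-5.82), a receptor tyrosine kinase, APP (-4.82), IQGAP2 (-4.65), SLC38A5 (-4.35), PMAIP1 (-4.35), TMTC1 (-4.32), HGF (-4.27), the ligand of MET, FRZB (-4.26), MFNG (-4.21), MYO1G (-4.05) and LAPTM5 (-4.04). All 24 were also called in the same direction without melphalan. The drug state still altered some of them. EDNRB, the endothelin B receptor, read 11.68 and 11.54 in U266/LR7 and 6.82 and 6.95 in U266/s under melphalan, and 11.89 and 11.86 against 9.07 and 9.06 without it. Its 4 U266/LR7 arrays stayed together, whereas U266/s was lower with the drug, and the difference was 4.73 ± 0.14 with and 2.81 without melphalan. In HGF the gap narrowed instead, with U266/s again the line that was lower with the drug. It read 4.80 and 4.35 against 8.69 and 9.001 under melphalan, and 4.18 and 4.67 against 11.01 and 11.16 without, so its difference was -4.27 with and -6.66 without the drug.

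Genes that handle the drug were described first by entry. SLC7A5, the light chain of the transporter LAT1 that carries melphalan, read 10.40 and 10.76 in U266/LR7 and 11.66 on both arrays of U266/s. U266/LR7 was lower on both arrays, by -1.08 ± 0.14 under melphalan (adjusted p = 6.64e-05) and by -2.21 without it. SLC3A2, the heavy chain that brings LAT1 to the membrane, was 0.57 ± 0.14 (adjusted p = 0.00573) and lost its call after cyclic loess and without the U266/LR7 melphalan array. Other carriers of neutral amino acids were lower, SLC38A5 at 5.78 and 5.72 against 9.73 and 10.47, and SLC38A2 at -1.35. SLC7A8, a related light chain, was higher at 9.34 and 9.98 against 7.61 and 8.89. In all, 5 of 13 entry genes were higher and 3 lower, beside 27.7% and 24.0% of all genes.

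Pumps of the ABC family, which export drugs and conjugates, differed in both directions, with 2 of 13 higher and 4 lower, beside 27.7% and 24.0% of all genes, so the counts set the pumps apart from other genes in neither direction. ABCC1, the exporter MRP1 of glutathione conjugates, read 8.01 and 7.59 in U266/LR7 and 9.53 and 9.99 in U266/s, and was lower by -1.96 ± 0.21 (adjusted p = 1.85e-05). ABCC4 (-1.58) and ABCA3 (-1.41) were lower as well, and the ABCC4 difference without melphalan was larger, -3.52. ABCG2, the breast cancer resistance protein, read 8.20 and 8.23 against 6.90 and 6.83 under melphalan and 8.16 and 8.62 against 8.96 and 8.74 without. U266/LR7 was above U266/s with the drug and below it without, with differences of 1.35 ± 0.17 and -0.46, of which the latter was not called (limma adjusted p = 0.0611). ABCB1, the P-glycoprotein gene, was low on all arrays (4.81 and 4.91 against 5.28 and 5.01) and was not called (adjusted p = 0.1175).

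Glutathione conjugates melphalan through transferases. Of 36 genes of glutathione conjugation and synthesis, 15 were higher and 8 lower, beside 27.7% and 24.0% of all genes, and 11 and 11 after cyclic loess. GSTM1, a cytosolic transferase, read 11.01 and 10.94 in U266/LR7, beside 8.05 and 8.597 in U266/s (2.65 ± 0.19). The microsomal transferases went apart: MGST1 read 4.48 and 4.52 against 7.93 and 8.25 (-3.59), and MGST3 read 10.66 and 11.03 against 8.79 and 9.23 (1.83). GSTM3 was higher by 1.63 under melphalan and was not called without it (0.38). GSTP1, the main transferase of many tumours, reached the same level in both lines under the drug, at 12.85 and 12.85 against 12.9996 and 12.88 (-0.08, adjusted p = 0.533), whereas without it U266/LR7 was 1.07 higher. GCLC, which catalyses the limiting step of glutathione synthesis, read 9.73 and 9.58 against 7.87 and 8.30. Its difference was 1.57 under melphalan and 0.03 without. NFE2L2, the factor NRF2 that drives this pathway, turned from -1.05 without to 1.27 under melphalan. Among 11 aldehyde and drug enzymes, 6 were higher and 3 lower, with carbonyl reductase CBR1 at 1.68, aldehyde dehydrogenase ALDH2 at 1.56, AKR1C3 at 1.48 and the cytochrome CYP1B1 at -2.34. MGMT, which removes alkyl groups from guanine, was lower in U266/LR7 by -0.995, at 6.94 and 6.6975 against 7.81 and 7.82.

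Crosslink repair genes were higher in U266/LR7 under the drug. Of 37 measured members 28 were higher and 2 lower, against 27.7% and 24.0% of all genes, and 18 were at least 2-fold higher, against 12.2%. Their median difference was 0.94 under melphalan and 0.06 without, beside -0.08 and -0.04 over all genes. After quantile normalization 24 were higher and 6 lower, and after cyclic loess 24 and 7. FANCM, a helicase that recruits the Fanconi core complex to stalled forks, read 7.21 and 7.25 in U266/LR7 and 5.19 and 5.29 in U266/s. The lines lay apart under melphalan by 1.99 ± 0.22 (adjusted p = 2.42e-05) and were not called apart without it (0.47). BRCA1, which directs homologous recombination, read 9.73 and 9.58 against 7.79 and 7.61, a difference of 1.95, and its partner helicase BRIP1 differed by 1.87. Both were also called without melphalan, at 0.90 and 0.95. ERCC4, the XPF nuclease that unhooks crosslinks, read 9.61 and 9.45 against 7.55 and 8.05 and differed by 1.73, with -0.21 without the drug. REV1, a translesion polymerase, read 7.81 and 7.72 against 6.21 and 5.999, a difference of 1.66. The exception of at least 2-fold was FAAP100, a Fanconi core subunit, at 8.32 and 8.26 against 9.94 and 10.02 (-1.69), which was lower to a similar degree without melphalan (-1.49).

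By role, 8 of 11 Fanconi core and ID complex genes, 8 of 11 nucleases and helicases, 6 of 8 recombination genes and 6 of 7 translesion genes were higher, and 1 Fanconi and 1 recombination gene were lower. Nucleotide excision repair showed 13 of 20 higher and 0 lower, beside 27.7% and 24.0% of all genes. End joining showed 8 of 12 higher and 0 lower. After quantile normalization these became 9 higher and 2 lower, and 6 higher and 1 lower. XPC, the damage sensor of global excision repair, read 8.58 and 8.42 against 6.69 and 6.60 (1.85), and GTF2H1, a TFIIH subunit, differed by 1.46. In end joining, RIF1 (1.79), NHEJ1 (1.36), DCLRE1C (1.18), the nuclease Artemis, and TP53BP1 (1.15) were higher, and none of these 4 was higher without melphalan. XRCC4, the partner of DNA ligase IV, was close in the lines at 6.06 and 5.87 against 5.80 and 5.62 and was not called (0.25, adjusted p = 0.1934). Of 20 checkpoint genes 14 were higher and 2 lower, with 11 and 2 after quantile normalization and 9 and 2 after cyclic loess. CLSPN, the claspin adaptor of CHK1, read 9.60 and 9.78 against 7.30 and 7.26. Both U266/LR7 arrays lay above both of U266/s by more than 2 units, with a difference of 2.41 ± 0.17 (adjusted p = 1.03e-06), against 0.76 without melphalan. The apical kinases followed, ATM at 1.46 and ATR at 1.21, as did the ATR activator ETAA1 at 1.73, whereas the phosphatase CDC25B was lower at 8.93 and 9.05 against 10.86 and 10.47 (-1.67).

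**Figure D2:**
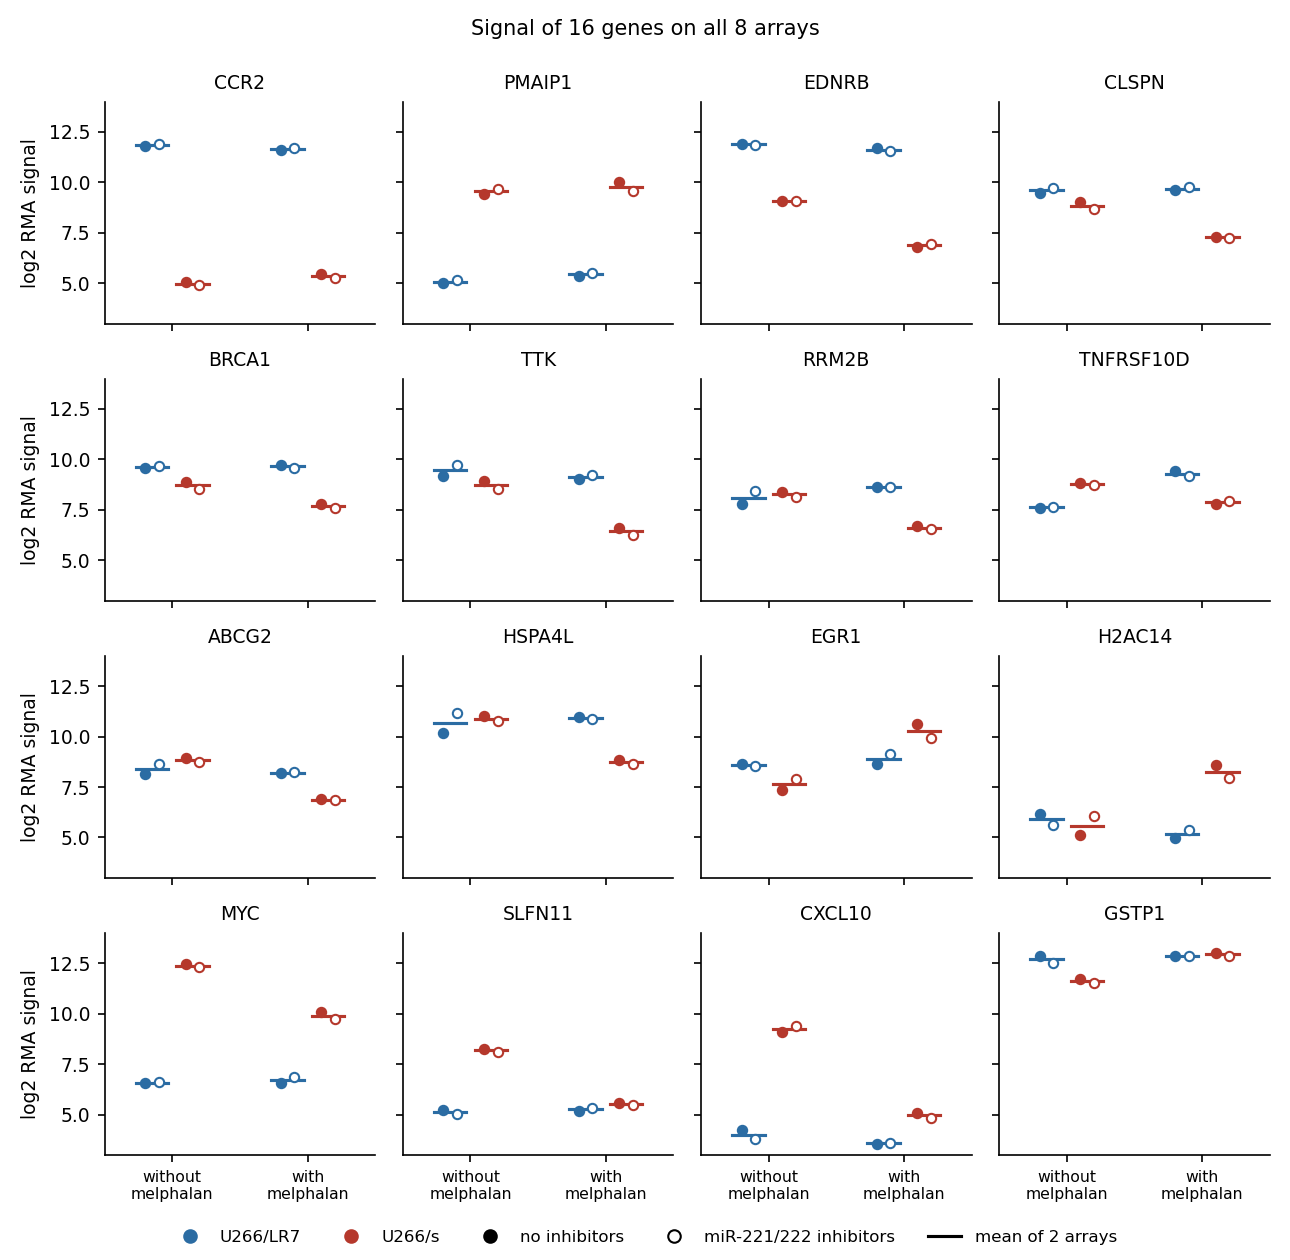
Signal (log2, y axis) of 16 genes on all 8 arrays, by drug state (x axis) and line (colour), with filled points for arrays without inhibitors, open points for arrays with them, and bars for the mean of 2 arrays. CCR2 and PMAIP1 kept a wide line difference in both states, EDNRB, CLSPN, TTK, RRM2B and HSPA4L had their lower values in U266/s with melphalan, EGR1 and H2AC14 were highest there, and the lines came together with melphalan in SLFN11 and GSTP1.

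Genes of G2 and mitosis were mostly higher in U266/LR7. Of 44, 34 were higher, 19 of them by at least 2-fold, and 4 were lower, beside 27.7% of all genes higher, 12.2% by 2-fold, and 24.0% lower. The median difference was 0.88 under melphalan and 0.12 without. After quantile normalization 28 were higher and 5 lower, and after cyclic loess 25 and 5. TTK, the kinase of the spindle checkpoint, read 9.05 and 9.22 in U266/LR7 and 6.61 and 6.26 in U266/s. That separation of 2.70 ± 0.22 (adjusted p = 2.53e-06) stood beside 0.72 without the drug. ECT2, which drives the cleavage furrow, differed by 2.28 and ANLN, its scaffold anillin, by 2.0003, and neither was called without melphalan. UBE2C, a ubiquitin-conjugating enzyme of the anaphase-promoting complex, opposed them at 7.76 and 7.55 against 9.49 and 9.80 (-1.99) and did so without melphalan too (-2.24). CCNB1, cyclin B1, was nearer in the lines at 9.18 and 9.14 against 8.69 and 8.79 (0.42, adjusted p = 0.0244), and it lost its call after quantile normalization, after cyclic loess and when any of the 4 melphalan arrays was left out.

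G1/S and replication genes depended on the scaling. Of 49, 25 were higher and 2 lower, beside 27.7% and 24.0% of all genes. After quantile normalization 16 were higher and 11 lower, and after cyclic loess 14 and 11. GINS3, a subunit of the replicative helicase, was higher by 1.61 and the repressor E2F7 by 1.38. CDK6, a G1 kinase, read 8.46 and 8.85 against 10.81 and 11.11 (-2.30), and E2F1 read 10.48 and 10.62 against 11.82 on both arrays (-1.27). CCND1, cyclin D1, was not called under melphalan at 11.27 and 10.96 against 11.48 and 11.34 (-0.30, adjusted p = 0.0627), whereas it was 1.24 higher in U266/LR7 without. CDK inhibitors were called in 1 direction only: of 7 measured, 0 were called higher, 4 lower and 3 not called, beside 24.0% of all genes lower. Their differences ran from -1.54 to 0.29. CDKN2A, the p16 locus, read 8.09 and 8.33 against 9.55 and 9.96 (-1.54). CDKN1B, encoding p27, was -0.26 (adjusted p = 0.1467) with the drug and -1.21 without, and CDKN1A, encoding p21, was 0.20 (adjusted p = 0.333).

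**Figure D3:**
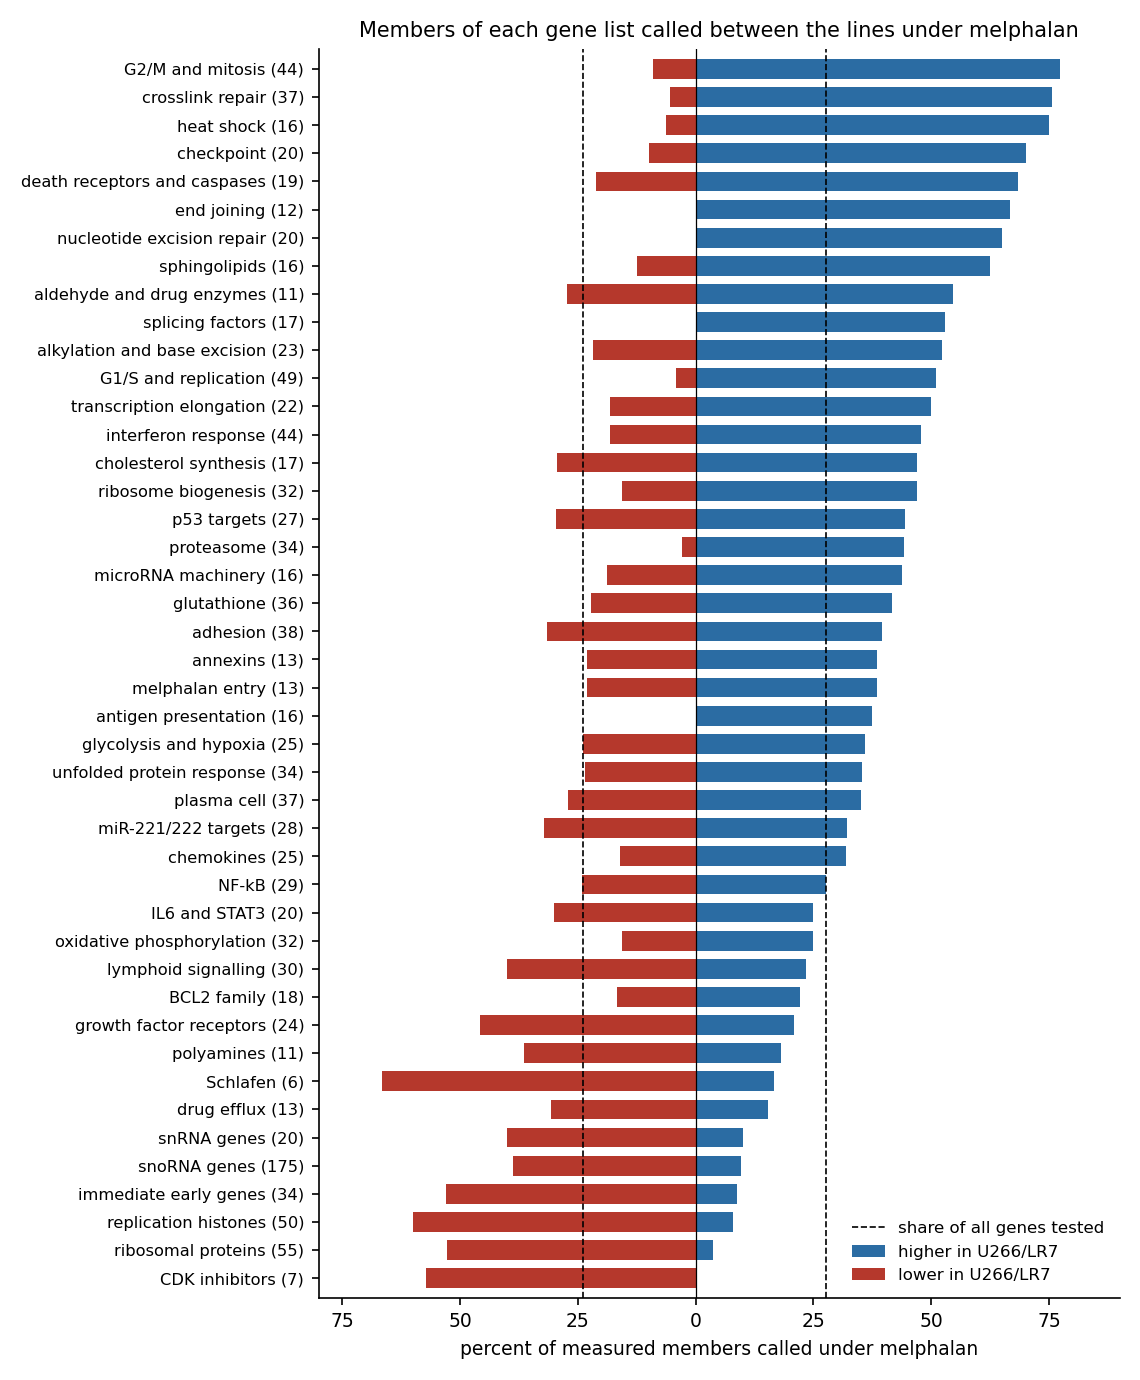
Percent of the measured members (number in parentheses) of each gene list that were called higher in U266/LR7 (right of 0) or lower (left of 0) under melphalan, with dashed lines at the shares of all genes tested, 27.7% and 24.0%. G2/M, crosslink repair and heat shock genes stand at the top, and ribosomal proteins, replication histones and immediate early genes have more members lower than higher.

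p53 targets showed no common direction. Of 27, 12 were higher and 8 lower, beside 27.7% and 24.0% of all genes, with a median of 0.22, which was -0.02 after quantile normalization. RRM2B, a ribonucleotide reductase subunit for repair, read 8.63 and 8.65 in U266/LR7 and 6.698 and 6.55 in U266/s. The difference of 2.02 ± 0.20 (adjusted p = 8.98e-06) stood beside -0.17 without melphalan. PPM1D, the phosphatase WIP1 that dampens the damage response, was higher by 1.54, and the kinase PLK2 was lower at 4.19 and 4.06 against 6.59 and 6.28 (-2.32). MDM2, a ubiquitin ligase, overlapped between the lines (11.25 and 11.16 against 11.18 and 10.78) and was not called (adjusted p = 0.2365).

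In the BCL2 family 4 of 18 members were higher and 3 lower, both under the shares of all genes, 27.7% and 24.0%. The counts were 3 and 5 after quantile normalization and 2 and 5 after cyclic loess. PMAIP1, the BH3-only protein NOXA that binds MCL1, dominated the list. It read 5.35 and 5.53 in U266/LR7, beside 10.01 and 9.57 in U266/s. The parental arrays were more than 4 units above the resistant ones, at -4.35 ± 0.18 (adjusted p = 3.39e-08), and the difference without melphalan was -4.49. BBC3, encoding PUMA, was lower as well, at 7.48 and 7.52 against 8.17 and 8.21 (-0.69). BCL2L11, encoding BIM, was higher at 8.47 and 8.53 against 7.56 and 7.67 (0.89), and so was the survival gene BCL2L1 (0.65), which lost its call after quantile normalization and cyclic loess. BCL2 (-0.03), MCL1 (0.17) and the BH3-only gene BMF (0.35) were not called. The medians of the list were near 0 and changed sign between scalings, from 0.06 to -0.08 after quantile normalization and -0.15 after cyclic loess.

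Death receptor and caspase genes had 13 of 19 members higher and 4 lower, beside 27.7% and 24.0% of all genes. After quantile normalization 7 were higher and 4 lower. The median of the list moved from -0.18 without to 0.58 under melphalan. TNFSF10, the death ligand TRAIL, read 8.08 and 7.89 against 6.28 and 6.54 (1.58). TNFRSF10D, a decoy receptor of TRAIL, read 9.42 and 9.18 against 7.79 and 7.96 under melphalan and 7.61 and 7.66 against 8.84 and 8.73 without. The order of the lines was thus reversed between the states, with differences of 1.42 and -1.15. All 5 caspases measured were higher, among them the initiator CASP9 (1.43), and so was XIAP (1.30), which inhibits caspases.

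Immediate early genes, which are transcribed within minutes of a stimulus, were mostly lower in U266/LR7. Of 34, 3 were higher and 18 lower, beside 27.7% and 24.0% of all genes, with a median of -0.53 under melphalan and 0.01 without. The direction held in every scaling, with 19 to 21 lower. MYC, a driver of growth in myeloma, read 6.57 and 6.86 against 10.07 and 9.73. The difference was -3.19 ± 0.17 (adjusted p = 1.96e-07) with the drug and -5.81 without. AP-1 genes had 0 of 10 higher and 6 lower. JUN read 8.63 and 8.92 against 10.91 and 9.97 (-1.66), FOSB 7.18 and 7.92 against 9.55 and 8.55 (-1.49) and FOS 8.48 and 8.72 against 10.47 and 9.42 (-1.34). In all 3 the U266/s array without inhibitors was the highest, and neither FOS, FOSB nor JUN was called without melphalan. ATF3, a stress-induced AP-1 factor, was -0.53 (adjusted p = 0.00702), and lost its call after cyclic loess and without either array with melphalan and inhibitors. EGR1, a zinc finger factor, read 8.62 and 9.15 against 10.64 and 9.92 under melphalan, and 8.62 and 8.55 against 7.37 and 7.88 without. The lines changed order, from 0.96 without to -1.39 with the drug (adjusted p = 0.000859).

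The promoter of EGR1 is shown because the gene turned and because its CArG boxes, in capitals, are the elements that serum response factor reads in immediate early genes. The window runs from 250 bases before to 50 after the start in RefSeq (GRCh38.p14), plus strand, chr5:138465229-138465528.
EGR1: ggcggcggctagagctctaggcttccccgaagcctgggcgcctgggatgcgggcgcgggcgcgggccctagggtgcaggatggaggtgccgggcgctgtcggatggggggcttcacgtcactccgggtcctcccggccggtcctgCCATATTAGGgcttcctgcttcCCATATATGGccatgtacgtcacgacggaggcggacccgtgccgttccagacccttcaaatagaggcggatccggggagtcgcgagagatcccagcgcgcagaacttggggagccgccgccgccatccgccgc
The EGR1 window held 2 matches. The box was found in 1.29% of 35116 promoters of this length and in 2 of 25 listed immediate early genes that have one, EGR1 and EGR2, and EGR2 was not analysed here. A match describes the letters only.

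Heat shock genes differed in the opposite direction. Of 16 chaperones and cofactors 12 were higher and 1 lower, beside 27.7% and 24.0% of all genes. The median was 0.61 under melphalan and -0.09 without, when 0 were higher and 6 lower, beside 16.9% and 17.8% of all genes. After quantile normalization 8 were higher and 1 lower, and after cyclic loess 7 and 2. HSPA4L, a nucleotide exchange factor, read 10.98 and 10.87 in U266/LR7 and 8.83 and 8.62 in U266/s. The 2.20 ± 0.25 between the lines (adjusted p = 2.97e-05) was -0.21 without the drug. DNAJB1, the main HSP40, read 11.57 and 11.58 against 9.88 and 9.93 (1.67), CHORDC1, a cochaperone of HSP90, 10.11 and 10.26 against 8.36 and 8.94 (1.53), and HSPH1, encoding HSP110, 11.32 and 11.31 against 9.76 and 10.05 (1.41). HSF1, the heat shock factor itself, was the lower member, at 9.04 and 9.08 against 9.82 and 10.24 (-0.97), and was lower without melphalan too (-1.06).

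The heat shock element, searched as GAANNTTCNNGAA on both strands, lay in 0.49% of the 35116 promoters and in 6 of 19 listed heat shock genes that have one. Of these 6, CHORDC1 (1.53), DNAJA1 (0.72), HSPA8 (0.55) and HSPD1 (0.44) were called higher, and HSP90AA1 (-0.03) and HSP90AB1 (0.14) were not called. DNAJA1 lost its call after cyclic loess, and HSPD1 after quantile normalization, after cyclic loess and without either melphalan-alone array. CHORDC1 held 3 overlapping matches and is shown, with the matched stretch in capitals (RefSeq, GRCh38.p14, minus strand, chr11:90223000-90223299).
CHORDC1: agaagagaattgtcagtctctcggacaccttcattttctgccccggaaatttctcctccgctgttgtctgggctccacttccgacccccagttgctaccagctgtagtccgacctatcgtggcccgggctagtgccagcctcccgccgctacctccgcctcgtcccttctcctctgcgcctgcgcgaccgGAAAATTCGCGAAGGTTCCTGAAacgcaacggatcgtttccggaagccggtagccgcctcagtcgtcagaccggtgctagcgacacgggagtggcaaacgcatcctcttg
HSPA8, the constitutive HSC70 with 2 matches, was high on all arrays, at 13.74 and 13.88 against 13.14 and 13.38.

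Genes of transcription elongation were higher in 11 of 22 cases and lower in 4, beside 27.7% and 24.0% of all genes. After cyclic loess 7 were higher and 6 lower. CCNT2 (1.59), a cyclin of P-TEFb, CDK7 (1.49), the TFIIH kinase, and CDK13 (1.24) were higher, and NELFB, a pausing factor, was lower (-1.28). HEXIM1, the inhibitor of P-TEFb, read 10.58 and 10.68 against 11.36 and 11.01 (-0.56, adjusted p = 0.0421), and it lost its call without any 1 of 5 arrays and in the fit without an inhibitors term. POLR2A, the largest subunit of RNA polymerase II, read 10.63 and 10.47 against 9.92 and 10.02 (0.58, adjusted p = 0.00524), and lost its call after quantile normalization, cyclic loess and without either melphalan-alone array.

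**Figure D4:**
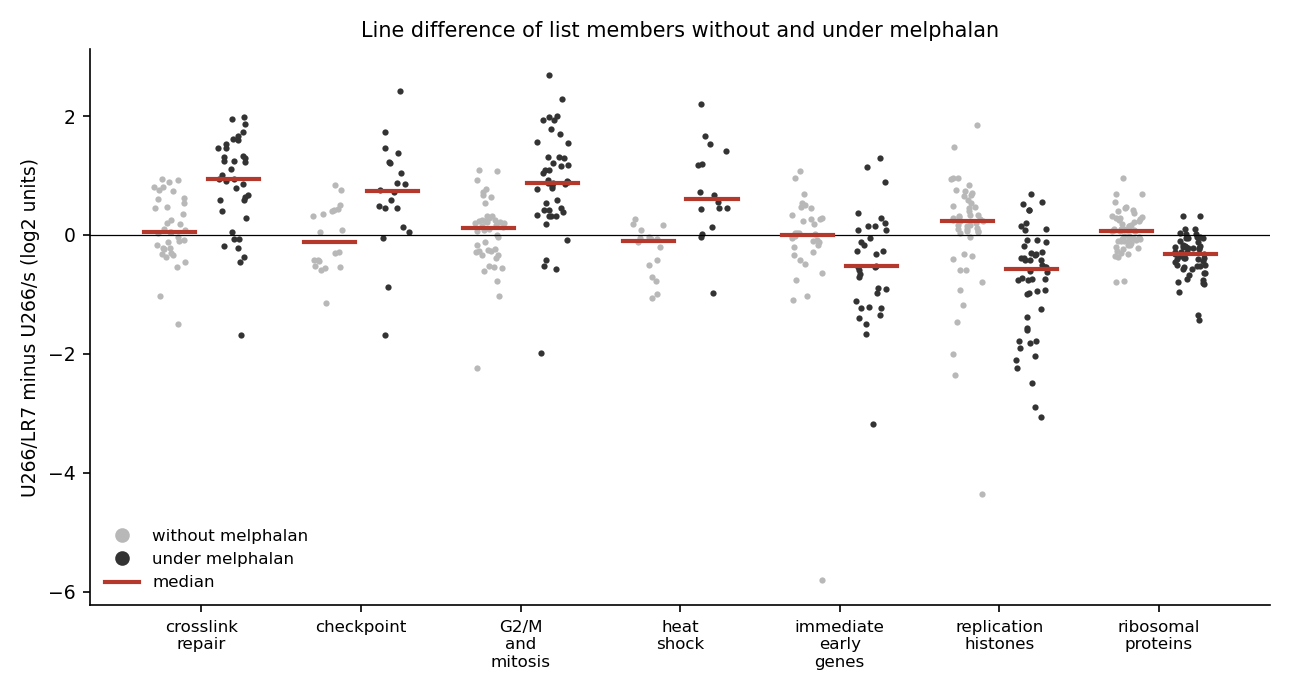
Line difference (log2 units, y axis) of each measured member of 7 gene lists (x axis), in grey without melphalan and in black under it, with medians as bars. The medians of crosslink repair, checkpoint, G2/M and heat shock genes lay near 0 without the drug and between 0.61 and 0.94 with it, and those of immediate early, histone and ribosomal protein genes were below 0 with it.

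Replication histones, which are transcribed in S phase into RNA without a poly(A) tail, were lower in U266/LR7 under melphalan. Of 50 measured, 4 were higher and 30 lower, beside 27.7% and 24.0% of all genes. At least 2-fold lower were 14, against 4.56% of all genes. The median was -0.57 under melphalan and 0.23 without, and 33 were lower in each other scaling. H2A genes differed most among the histone classes, with 0 of 12 higher, 8 lower and a median of -1.39. H2AC14 read 4.997 and 5.39 in U266/LR7 and 8.58 and 7.94 in U266/s under melphalan, against 6.17 and 5.62 and 5.11 and 6.05 without. The lines overlapped without the drug and were separated with it, by -3.07 ± 0.31 (adjusted p = 1.1e-05). H2AC12 behaved likewise (-2.24, against 0.45 without), whereas H3C8 (-2.89) and H2BC8 (-2.50) were also lower without melphalan. Members of the clustered histone families are near copies of each other, so probes may be shared, which was not tested.

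Small nuclear and nucleolar RNA genes were lower more often than higher. Of 175 snoRNA genes 17 were higher and 68 lower, beside 27.7% and 24.0% of all genes, with a median of -0.33 under melphalan and 0.24 without, and of 20 snRNA genes 2 were higher and 8 lower, with medians of -0.34 and 1.30. SNORA24 read 9.13 and 9.32 against 11.87 and 11.85 (-2.64), SCARNA22, a guide RNA of the Cajal body, 7.28 and 7.41 against 9.93 and 9.95 (-2.60), and RPPH1, the RNA of RNase P, 9.36 and 9.68 against 12.08 and 12.01 (-2.52). None of these 3 was called without melphalan. Ribosomal protein genes were lower in 29 of 55 cases and higher in 2. Their median was -0.32, and 35 to 42 were lower in the other scalings. The sizes were small, with RPL13 (-1.43) and RPS24 (-1.35) at least 2-fold lower. Ribosome biogenesis factors had no stable direction. Of 32, 15 were higher and 5 lower, and 10 and 10 after cyclic loess, with TAF1B (1.78) and POLR1B (1.64), which serve RNA polymerase I, higher and BOP1 lower (-1.35).

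Of 34 genes of the unfolded protein response, 12 were higher and 8 lower, beside 27.7% and 24.0% of all genes. That order turned to 9 and 15 after quantile normalization and 9 and 16 after cyclic loess. The kinase EIF2AK3, known as PERK, was higher (1.52), and DDIT3, its downstream death factor CHOP, read 9.07 and 9.55 against 10.55 and 10.37 (-1.15), with 0.03 without melphalan. Among 16 sphingolipid genes 10 were higher and 2 lower, beside 27.7% and 24.0% of all genes. UGCG, which makes glucosylceramide from ceramide, read 9.35 and 9.42 against 6.65 and 7.10 (2.51), and serine palmitoyltransferase subunits SPTLC2 (1.39) and SPTLC1 (1.29) were higher. CERS6, a ceramide synthase, read 5.91 and 5.67 against 8.997 and 9.82 (-3.62) and was lower by -5.96 without the drug. HIF1A, the hypoxia factor, read 10.22 and 10.91 against 8.10 and 9.10 (1.96). It was the highest member of the glycolysis and hypoxia list, which had no common direction. Of 25 members 9 were higher and 6 lower, with a median of 0.03 and differences down to -1.905.

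The plasma cell program held in part. IRF4, the factor on which myeloma depends, read 12.02 and 11.91 against 12.12 and 12.06 and was not called (adjusted p = 0.2689). SDC1, encoding CD138, was likewise not called under melphalan (0.28, adjusted p = 0.2305), although it was 1.60 higher in U266/LR7 without. XBP1 (0.39) and JCHAIN (-0.34) were called with small differences that some settings lost. Of 37 plasma cell genes 13 were higher and 10 lower, beside 27.7% and 24.0% of all genes. These counts turned to 12 and 15 after quantile normalization and 11 and 16 after cyclic loess. Surface genes were mostly higher, 7 of 13. CD52, a glycoprotein of lymphocytes, read 12.51 and 12.52 against 8.48 and 8.07 (4.24). SLAMF7, the antigen CS1, read 8.83 and 10.54 against 6.18 and 7.10 (3.04), with the higher value of each line on the inhibitor array. TNFRSF17, encoding BCMA, differed by 0.97 and CD38 by 1.34, whereas GPRC5D was lower at 5.79 and 5.54 against 8.21 and 7.91 (-2.39). IKZF1, the Ikaros factor degraded by immunomodulatory drugs, read 6.23 and 5.87 against 9.39 and 9.28 (-3.29), and CRBN, the cereblon protein those drugs bind, read 10.24 and 10.17 against 8.55 and 7.98 (1.93). IGKC, the kappa constant region, was lower by -3.49 and MZB1, a secretory chaperone, by -1.71. The IGKC value is that of a single cluster, and its change with the drug turned sign when all clusters of the gene were averaged. The phosphatase PTPRC, known as CD45, read 5.36 and 5.48 against 8.73 and 8.48 (-3.18).

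Receptors and ligands differed in both directions. Of 24 growth factors and their receptors, 5 were higher and 11 lower, beside 27.7% and 24.0% of all genes. FGFR3 read 7.24 and 7.37 in U266/LR7 and 13.16 and 13.08 in U266/s, at -5.82 with and -5.84 without melphalan. MET, the receptor of HGF, was higher in U266/LR7, at 10.01 and 9.82 against 8.05 and 8.09 (1.85), while its ligand was lower. IL6, the growth factor of myeloma cells, read 8.86 and 8.93 against 6.29 and 6.52 (2.49), and REL, an NF-kB subunit, differed by 2.03. Their lists had no common direction. The NF-kB list had 8 of 29 members higher and 7 lower, with differences from -2.095 to 2.49. In the IL6 and STAT3 list 5 of 20 were higher and 6 lower. Chemokine receptors CCR10 (2.42) and CCR1 (2.03) and the ligand CXCL16 (1.85) were higher. The chemokine list of ligands and receptors had 8 of 25 members higher and 4 lower, with a median of -0.04. CXCL10, an interferon-induced chemokine, read 3.55 and 3.61 against 5.07 and 4.85 under melphalan, all low, and 4.22 and 3.79 against 9.10 and 9.37 without. Its difference was -1.38 with and -5.23 without the drug. The interferon response list of 44 had 21 members higher and 8 lower, beside 27.7% and 24.0% of all genes. Its median was 0.32, and its differences ran from -1.49 to 2.11. Among the higher members were SAMD9 (2.11), MX1 (1.86), OAS2 (1.83), MX2 (1.76) and the RNA sensor IFIH1 (1.70). Of those named, SAMD9 and IFIH1 were not called without melphalan. HLA-DQB1, a class II chain, was higher by 2.07. Among adhesion genes, desmoglein DSG2 (-3.86), integrin ITGB5 (-3.52) and N-cadherin CDH2 (-2.78) were lower and plakophilin PKP2 was higher (2.24). The adhesion list of 38 had 15 higher and 12 lower, beside 27.7% and 24.0% of all genes. Its median of -0.16 was 0.04 after cyclic loess.

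Differences that appeared with the drug were those called at 2-fold or more under melphalan, not called without, and with a called interaction. There were 913, of which 805 were higher in U266/LR7 and 108 lower. These groups were chosen by the tests named, so their levels are a description. The median signal of the 805 was 9.26 in U266/LR7 and 7.78 in U266/s under melphalan, and 9.18 and 9.08 without. It was hence U266/s that stood lower on the drug arrays. For the 108 the medians were 7.78 and 9.23 with the drug and 7.77 and 7.81 without. The 4 largest higher were NCK1, a signalling adaptor, at 8.99 and 8.98 against 5.98 and 6.21 (2.89), MORC3 (2.81), EFNA4 (2.79), an ephrin ligand, and RASA2 (2.76), a RAS GTPase activator. Without melphalan NCK1 differed by 0.14. The largest lower were H2AC14, SNORA24, SCARNA22 and PYGM (-2.58), muscle glycogen phosphorylase. Protein-coding genes that appeared higher spanned a median of 47.03 kb of genome and those that appeared lower 12.65 kb, beside 27.32 kb for all protein-coding genes, and 35.51 and 66.3 kb for the lasting genes.

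Differences called at 2-fold or more without melphalan and not called under it, with a called interaction, numbered 316, of which 97 had been higher and 219 lower in U266/LR7. The largest difference without melphalan among the latter was in SLFN11, a factor that blocks stalled replication forks and sensitises cells to DNA damage. It read 5.20 and 5.32 against 5.58 and 5.47 under melphalan, and 5.22 and 5.02 against 8.25 and 8.12 without. With the drug U266/s was at the low signal of U266/LR7, and the difference was -0.27 ± 0.14 (adjusted p = 0.1219) against -3.06 without. IL10 (-0.58, against -2.95), GPAT3 (-0.33, against -2.83) and DIAPH2 (-0.51, against -2.55) followed in the order of that difference. Of the 6 Schlafen genes 1 was higher, SLFN5 at 9.53 and 9.51 against 7.48 and 7.11 (2.23), and 4 were lower. Those higher without the drug were led by small RNA genes, the U5 genes RNU5E-1 (0.45, against 3.20) and RNU5D-1 (0.19, against 2.66), SNORD116-1 (-0.32, against 2.34) and SNORD116-24 (-0.25, against 2.31). THEMIS, a T cell signalling gene, stayed called but narrowed from -6.09 to -2.20.

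The sign of the difference turned in 451 genes, called in both states and for the interaction. In 372 U266/LR7 was higher under melphalan and in 79 lower. Medians of the 372 were 9.29 against 8.37 with the drug and 9.03 against 9.88 without. MINPP1, an inositol phosphatase, read 10.31 and 10.20 against 8.04 and 8.08 under melphalan and 9.98 and 10.14 against 10.85 and 10.55 without, and thus went from -0.64 to 2.20. STAM (2.18, against -0.58), a sorting adaptor of receptors, DCK (1.95, against -0.89), the deoxycytidine kinase that activates nucleoside drugs, and ZNF148 (1.87, against -0.52) were next. In the other direction MTND2P28, a nuclear copy of a mitochondrial gene for which shared probes were not tested, read 8.10 and 8.69 against 11.22 and 10.65 (-2.54, against 0.94 without). The small RNA genes SNORD13P1 (-2.24), SNORA52 (-1.97) and RNU6ATAC (-1.91), the latter a part of the minor spliceosome, followed.

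Along the chromosomes, runs of at least 10 neighbouring measured genes called in 1 direction numbered 13, of which 9 were higher in U266/LR7 and 4 lower. This description was made after the values were seen. On chromosome 19 lay 7 of them, all higher, with 125 genes of which 118 were ZNF or ZFP genes. These encode zinc finger proteins, most of which carry a KRAB domain and silence transposable elements. The longest run held 29 genes from ZNF146 to ZNF573, with a median difference of 1.47 under melphalan and 1.01 without. The longest lower run held 24 genes on chromosome 1, from MIR429 to SLC35E2B, with a median of -0.85 under melphalan and -0.64 without. Of all 242 ZNF and ZFP genes measured on chromosome 19, 186 were higher and 18 lower, and 140 were at least 2-fold higher, against 12.2% of all genes. Their median was 1.16 under melphalan and 0.67 without, and lay between 1.09 and 1.17 in the other scalings. On other chromosomes 117 of 272 such genes were higher and 51 lower (median 0.21), and among the 1066 other genes of chromosome 19, 178 were higher and 295 lower (median -0.17). Many of these genes are similar in sequence, and shared probes were not tested.

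**Figure D5:**
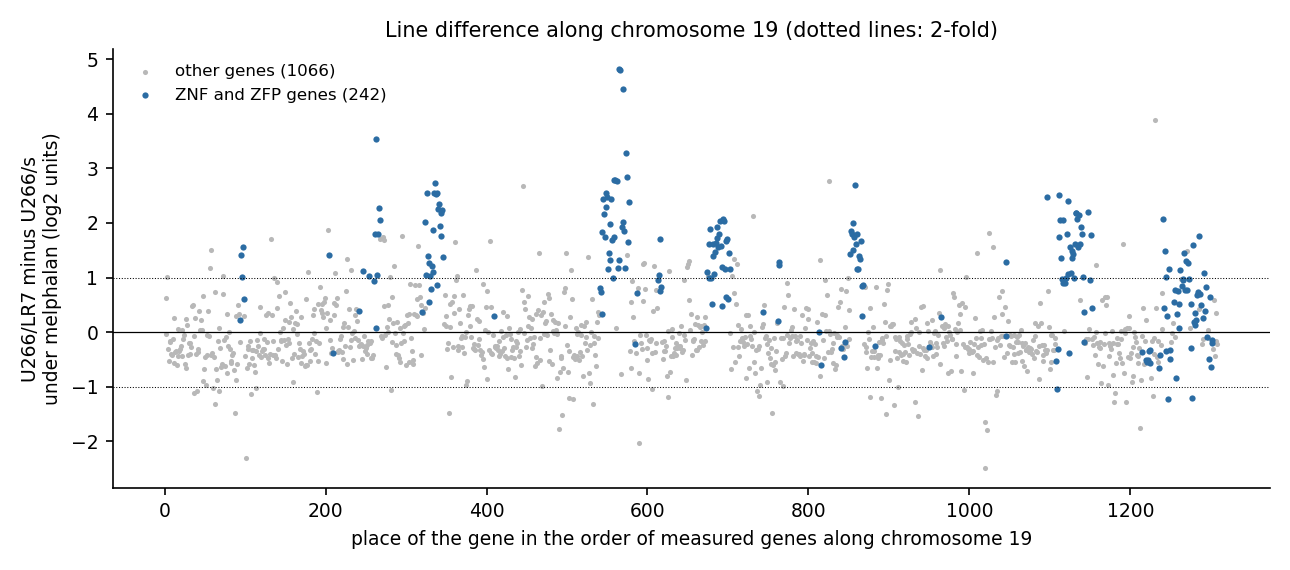
Line difference under melphalan (log2 units, y axis) of 1308 genes measured on chromosome 19, in their order along it (x axis). The ZNF and ZFP genes (242, blue) lie in clusters, 140 of them called higher by at least 1 unit, up to 4.82 for ZNF676, and most other genes (grey) lie within 1 unit of 0.

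Known targets of miR-221 and miR-222 had no common direction under melphalan. Of 28 genes 9 were higher and 9 lower, beside 27.7% and 24.0% of all genes. Without melphalan 2 were higher and 14 lower, beside 16.9% and 17.8% of all genes. Their median was -0.06 with and -0.41 without the drug. The melphalan by line interaction was positive for 13 and negative for 1, beside 17.9% and 5.99% of all genes. PTPRM, a receptor phosphatase, read 5.46 and 5.40 against 8.96 and 9.41 (-3.75), and SOCS1, a cytokine signalling inhibitor, differed by -1.49. TBK1, an innate immune kinase, was higher at 10.12 and 10.06 against 8.89 and 8.33 (1.48) and was not called without melphalan (-0.32). The matched pairs with and without inhibitors had the same direction in these 3 genes, which follows in large part from their calls.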

How the data were processed

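Total RNA of 8 samples, 1 per condition, was hybridised to Affymetrix arrays with 1 colour. The authors deposited log2 values made with Affymetrix Expression Console and RMA, per the submitters' processing notes. For versions, settings and genome build, the entry is: not given in the sources used here. Deposited were 33297 transcript clusters, with 0 columns of no sample. In the platform annotation 19460 clusters had 1 gene symbol, 1754 several and 12083 none there. Of those with 1 symbol, 19429 matched a gene of RefSeq's table (GRCh38.p14) by gene ID. The cluster of highest mean stood for each of 769 genes with more than 1, which left 18417 genes. RMA includes quantile normalization, so a shift of most genes in 1 direction would be reduced.

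With limma 3.58.1 (R 4.3.3), 1 model was fitted to all 8 arrays, with terms for line, melphalan, their interaction and inhibitors (3 residual degrees of freedom, median residual SD 0.1388). Variances were moderated by eBayes with an intensity trend, and p-values were Benjamini-Hochberg adjusted over all genes at 0.05. The script was tested on simulated data. The number of arrays limits the precision.

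The comparison, the 42 gene lists and 6 marker lists (1164 listed members, 1053 measured) and the naming rule were chosen with earlier results of these data known. The rule names the 12 largest called genes each way, the 8 largest each way that appeared, shrank or turned (the text describes the first 4), the 4 members of largest difference per list with others needed for a role, and a fixed set of drug, death and myeloma genes. The rule ranks by the difference under melphalan. Genes that shrank were ranked instead by the difference without it, a departure from the rule. Alternatives were the melphalan arrays alone, other terms, no trend, median centring, quantile and cyclic loess normalization, a signal filter, cluster means, all clusters, and leaving out each array.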

Additional observations from a re-analysis of the deposited data

Results flagged for a closer look

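These genes had a line difference that itself changed with the drug (limma interaction, adjusted p under 0.05, 8 arrays). Each value is the line difference under melphalan minus that without, in log2 units, so a positive value means that U266/LR7 stood higher relative to U266/s with the drug. Among the genes with the largest differences, the change was EDNRB at 1.92, ZNF730 at 0.69, POPDC3 at 1.65, CD52 at -1.13, ANXA1 at 1.05, APP at 1.67, IQGAP2 at 1.77, HGF at 2.38, FRZB at 2.10 and LAPTM5 at 0.95. Among drug handling genes, the change was SLC7A5 at 1.14, SLC38A2 at 0.88, ABCC4 at 1.94, ABCG2 at 1.81, MGST1 at 1.76, GSTM3 at 1.24, GSTP1 at -1.16, GCLC at 1.54 and NFE2L2 at 2.31. Among crosslink and excision repair genes, the change was FANCM at 1.52, BRCA1 at 1.05, BRIP1 at 0.92, ERCC4 at 1.94, REV1 at 1.61, XPC at 0.63 and GTF2H1 at 1.49. For end joining and checkpoint genes, the change was RIF1 at 1.84, NHEJ1 at 2.07, DCLRE1C at 1.503, TP53BP1 at 0.93, ATM at 1.06, ATR at 1.64, CLSPN at 1.65 and ETAA1 at 0.88. In the cell cycle lists, the change was TTK at 1.98, ECT2 at 2.04, ANLN at 2.005, CCNB1 at 0.66, CCND1 at -1.54, GINS3 at 1.48, E2F7 at 1.30 and CDKN1B at 0.95. For death genes and p53 targets, the change was BMF at 0.998, TNFSF10 at 2.08, TNFRSF10D at 2.57, XIAP at 1.14, RRM2B at 2.19, PPM1D at 1.83, MDM2 at 0.83 and PLK2 at -0.85. Among immediate early genes, the change was MYC at 2.62, FOS at -1.62, FOSB at -1.42, EGR1 at -2.35 and ATF3 at -0.76. For elongation genes, the change was CCNT2 at 1.47, CDK7 at 0.94, CDK13 at 1.39, NELFB at -0.50, HEXIM1 at -0.99 and POLR2A at 1.21. Among stress genes, the change was HSPA4L at 2.40, DNAJB1 at 1.41, CHORDC1 at 1.35, HSPH1 at 2.18, HSPA8 at 0.62, HSPD1 at 0.87, DDIT3 at -1.18, EIF2AK3 at 1.35 and HIF1A at 1.64. For histone, small RNA and ribosome genes, the change was H2AC14 at -3.39, H2BC8 at -1.31, H2AC12 at -2.69, SNORA24 at -2.23, RPPH1 at -2.62, SCARNA22 at -2.26, RPL13 at -1.27, TAF1B at 1.59 and POLR1B at 1.898. Among plasma cell, lymphoid and myeloid genes, the change was SDC1 at -1.32, IGKC at 1.08, THEMIS at 3.90, CD14 at -0.92 and MPO at -0.95. For cytokine and interferon genes, the change was CCR10 at 0.90, CCR1 at 1.49, CXCL10 at 3.85, IL6 at 0.87, IL10 at 2.37, REL at 1.13, SAMD9 at 1.79, MX2 at -1.23, IFIH1 at 1.77, SLFN11 at 2.80 and SLFN5 at 1.58. Among adhesion and sphingolipid genes, the change was DSG2 at 2.90, CDH2 at 1.41, PKP2 at 1.57, CERS6 at 2.34, UGCG at 2.05, SPTLC1 at 1.58 and SPTLC2 at 0.88. Among the other genes that appeared, narrowed or turned, the change was NCK1 at 2.75, MORC3 at 2.62, EFNA4 at 2.80, RASA2 at 2.33, PYGM at -2.48, GPAT3 at 2.50, DIAPH2 at 2.04, DCK at 2.84, MINPP1 at 2.84, STAM at 2.76 and ZNF148 at 2.39. For the other small RNA genes and the mitochondrial copy, the change was RNU5E-1 at -2.75, RNU5D-1 at -2.48, SNORD116-1 at -2.66, SNORD116-24 at -2.56, SNORD13P1 at -3.30, SNORA52 at -2.88, RNU6ATAC at -2.75 and MTND2P28 at -3.48. Of the miR-221 and miR-222 targets not named above, the change was PTPRM at 0.71 and TBK1 at 1.80. The value of IGKC turned to -0.49 when all clusters of the gene were averaged. No cause was tested for any of these.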

How the results depend on the processing

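Of 168 genes of the text called under melphalan, 158 were called in the same direction in every setting in which they were tested, 10 lost the call in at least 1 and 0 turned. With only genes above the median signal, 6207 were called under melphalan, 1950 lower and 510 lower by 2-fold, and 48 genes had pairs at least 1 unit apart. With all transcript clusters 6822 were lower, 1834 by 2-fold, and 2821 interactions were negative, against 1997 after quantile normalization. List medians changed sign for p53 targets (-0.024), NF-kB (-0.030) and cholesterol synthesis (-0.015) after quantile normalization, for adhesion (0.036), annexins (-0.067), ribosome biogenesis (-0.060) and cholesterol synthesis (-0.069) after cyclic loess, and for drug efflux (0.061), IL6 and STAT3 (0.32), adhesion (0.57) and Schlafen genes (0.83) among genes above the median signal. Lists with medians nearer to 0 also changed sign: BCL2 family, glycolysis and hypoxia and oxidative phosphorylation (-0.077, -0.076 and -0.16 after quantile normalization, -0.15, -0.19 and -0.22 after cyclic loess), glycolysis and hypoxia after median centring (-0.036), and chemokines (0.032 and 0.14 after those normalizations and 1.49 among genes above the median signal). The IGKC interaction was -0.49 with the mean of its clusters. Leaving out 1 array at a time gave 6152 (without U266/LR7 with melphalan) to 10130 calls under melphalan, of which 2254 (the same array) to 4729 were lower. Interactions called numbered 2443 (without the U266/s negative control) to 5253, the positive ones 1919 to 3799 and the negative ones 461 to 1454. Compared as pairs matched on inhibitors, on the 4 melphalan arrays alone with inhibitors as the block (1 residual degree of freedom), 10703 genes were called and 9527 of the 9529 calls were kept. That fit gives the same line differences from the same arrays, so the kept calls are no separate support. Its eBayes prior held 42.34 degrees of freedom, against 8.217 in the main model. With 1 array per condition, the number of arrays limits every comparison, and small differences at low signal are the least certain.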
